A study of Mus musculus with 29 samples.

Results

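Gene expression was compared between mammary fat of mice that had been obese and then underwent intermittent calorie restriction (ICR, 5 libraries) and mammary fat of mice that stayed lean on the control diet (Control, 5 libraries), over all genes of the deposited table. The 10 libraries of both groups are part of 29 in 6 diet groups, and were chosen by the treatment that the labels give. The mice were C57BL/6N animals of wild-type genotype. Control mice received the diet coded D12450J throughout, whereas ICR mice were first made obese with a 60% fat diet and then lost weight on the intermittent regimen, whose schedule the labels do not describe. Every mouse, Control included, was injected in week 25 with E0771 cells, a mouse line of mammary cancer cells, in fat pad 4, and the tissue sequenced was fat pad 9 of the other side, taken at the end of tumour growth. The sample titles begin with "tumor" and the labels name the injected line, while the tissue field names normal mammary tissue. Each title carries its own animal number. The labels state neither the age at collection nor the clock time. In the fit over all 29 libraries, the spread behind each p-value is that within all 6 groups, not within ICR and Control alone.

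White fat stores triglyceride in adipocytes, which break it down when energy is short and rebuild it after feeding. The same depot holds mammary ducts, vessels, nerve, macrophages and, in some pads, a lymph node, and each contributes transcripts to a bulk library. Mature adipocytes also make enzymes that are best known from liver, among them the cytochrome P450 Cyp2e1, and they run a molecular clock, in which Arntl with its partner switches on the Per and Cry genes and the clock output factors Dbp, Tef and Hlf.

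Recovered sequencing depth ran from 16949981 to 39605294 reads in Control and from 18212783 to 44127445 in ICR. Values below are normalized counts, that is reads divided by the library's size factor, and log2 differences are on the deposited log2 scale, which compresses low counts. In all 10 libraries the adipocyte markers Adipoq, Plin1, Fabp4 and Cidec were abundant, and transcripts of a lymph node were present. The 12 fixed B cell markers, such as Ms4a1 and Cd79a, summed to between 33604 and 85265 normalized counts in Control and to between 13670 and 44138 in ICR, with none at 0, and the 7 T cell markers to between 6099 and 23564 and between 4401 and 11892. The 4 adipocyte markers summed to between 127925 and 322660 in Control and between 394218 and 584908 in ICR, so these sums did not overlap. Control 1 and Control 2 stood apart: the mean of the mature adipocyte list was 12.91 and 12.86 there, against 13.99 to 14.34 in the other Control libraries and 14.39 to 14.84 in ICR. Fewer cells of a type and less RNA per cell cannot be told apart in such bulk samples. The 4 skeletal muscle markers summed to between 136 and 448 in Control and between 110 and 5798 in ICR. Acta1 made up most of it in ICR 1, ICR 2 and ICR 5 (2334, 1222 and 1358 counts), while ICR 4 also held 381 of Ckm and 2264 of Myh4, which stayed at or below 5.39 and 34.5 in the other libraries of both groups.

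**Figure D1:**
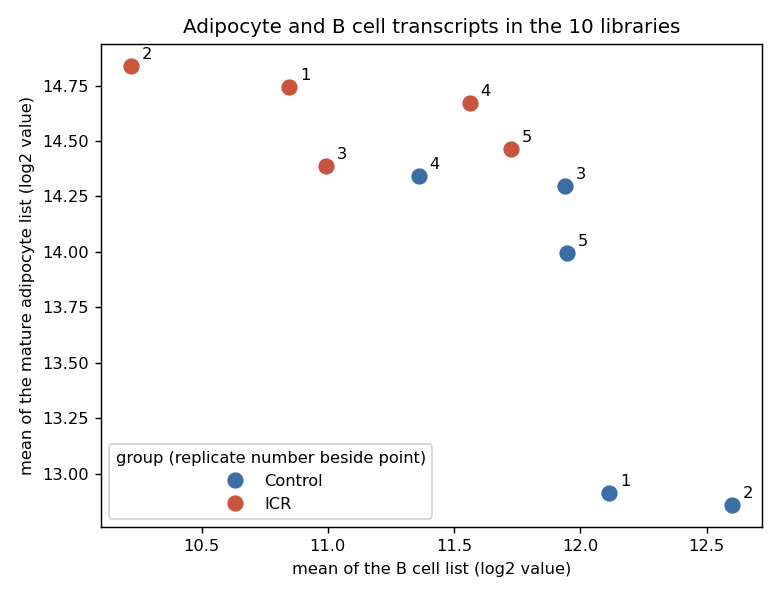
Mean of the mature adipocyte list (vertical axis, log2 value) against the mean of the B cell list (horizontal axis, log2 value) in the 5 Control and 5 ICR libraries, 1 point per library with its replicate number. All ICR libraries lie above all Control libraries on the adipocyte axis, and Control 1 and Control 2 are lowest at 12.91 and 12.86.

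ICR fat differed from lean fat in 887 of 19387 genes tested (4.58%), of which 716 were higher in ICR (3.69%) and 171 lower (0.882%), by limma with Benjamini-Hochberg adjustment and a threshold of 0.05. Of the called genes, 227 rose by a log2 difference of at least 1 and 18 fell as far. The split between the directions depended on the fit: without the 8 libraries low in B cell transcripts, all of other groups, 2346 genes were higher and 2392 lower, with array quality weights 2345 and 1379, and with lane as a term 866 and 408. Without any test, the 5 ICR libraries lay wholly above or wholly below the 5 Control libraries in 1467 genes (7.57%), 895 above (4.62%) and 572 below (2.95%), and 546 of these were among the called genes. The call count also depended on single libraries. Without Control 1, 128 genes rose and 23 fell, without Control 2 156 and 28, and without ICR 2, whose adipocyte list mean was the highest, 139 and 16. Without both Control 1 and Control 2, the one pair that was left out together, 1 rose and 1 fell, namely Lonrf1 and Dmbt1, with 1950 genes at an unadjusted p under 0.05. Counts also moved by more than 1.5 times without Control 4, Control 5, ICR 1 or ICR 4, and the lower count without ICR 5 (270), between 282 and 1189 higher and between 41 and 332 lower. With the adipocyte list mean as a covariate, 2 genes were called higher, Lonrf1 and Podn, and 2 lower, Klb and Pafah2, which were not called in full (-0.28, adjusted p = 0.668, and -0.27, adjusted p = 0.281). Since that mean did not overlap between the groups, it cannot be told apart from the diet. The 716 higher genes had a median difference of 0.80, which was 0.60 without Control 1 and Control 2 and 0.37 with the adipocyte covariate, and the 171 lower genes had -0.56, -0.47 and -0.37. Every call named below for ICR against Control, other than those of Lonrf1 and Dmbt1, missed the threshold without both Control 1 and Control 2. Each list's median is therefore followed, in this order, by its median without these libraries and by that with the adipocyte covariate.

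Enzymes that are best known from liver rose in ICR. Of 27 tested genes of this list, 11 rose, where 3.69% of all genes tested did, and the median log2 difference was 1.01, then 0.67 and 0.31, against -0.03 over all genes tested. Cyp2e1, a cytochrome P450 that oxidises ethanol and small organic compounds (chromosome 7, 140763739 to 140774987, GRCm38), gave 7774, 4912, 10223, 36618 and 15636 normalized counts in Control 1 to 5 and 84254, 59769, 42271, 98432 and 42474 in ICR 1 to 5. All ICR libraries lay above all Control libraries, with Control 4 closest, and the log2 difference was 2.39, SE 0.55, adjusted p = 0.0165. Cyp2f2, a P450 best known from airway cells (chromosome 7, 27119909 to 27133660), gave 451, 645, 932, 1615 and 858 in Control and 3480, 3469, 3615, 5909 and 1992 in ICR. These groups did not overlap either, and the difference of 2.05, SE 0.42, adjusted p = 0.00966 held without any 1 library. Alb, the serum carrier albumin (chromosome 5, 90460897 to 90476602), gave 461, 389, 1051, 2110 and 1232 in Control and 2831, 3719, 3491, 2508 and 1767 in ICR. Here Control 4 lay above ICR 5, and the difference was 1.64, SE 0.40, adjusted p = 0.0205. Gstt1, a glutathione transferase (1.06, SE 0.22, adjusted p = 0.00995), and the carboxylesterase Ces1f (1.42, SE 0.29, adjusted p = 0.0101) rose without overlap, and the other called members were the flavin monooxygenases Fmo1 and Fmo2, the aldehyde oxidase Aox1, the alcohol dehydrogenase Adh1, the esterase Ces1d and the sulfotransferase Sult1a1. Apoc3, a defining liver gene, stayed between 2.04 and 27.5 counts in Control and between 6.34 and 24 in ICR, ranges that overlapped, and Ttr was not analysed here. Cyp2e1 missed the threshold without any 1 of ICR 2, ICR 4, Control 1 or Control 2 (largest adjusted p = 0.0671). Alb missed the threshold without any 1 of ICR 1, ICR 2, Control 1 or Control 2 (largest adjusted p = 0.0856).

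**Figure D2:**
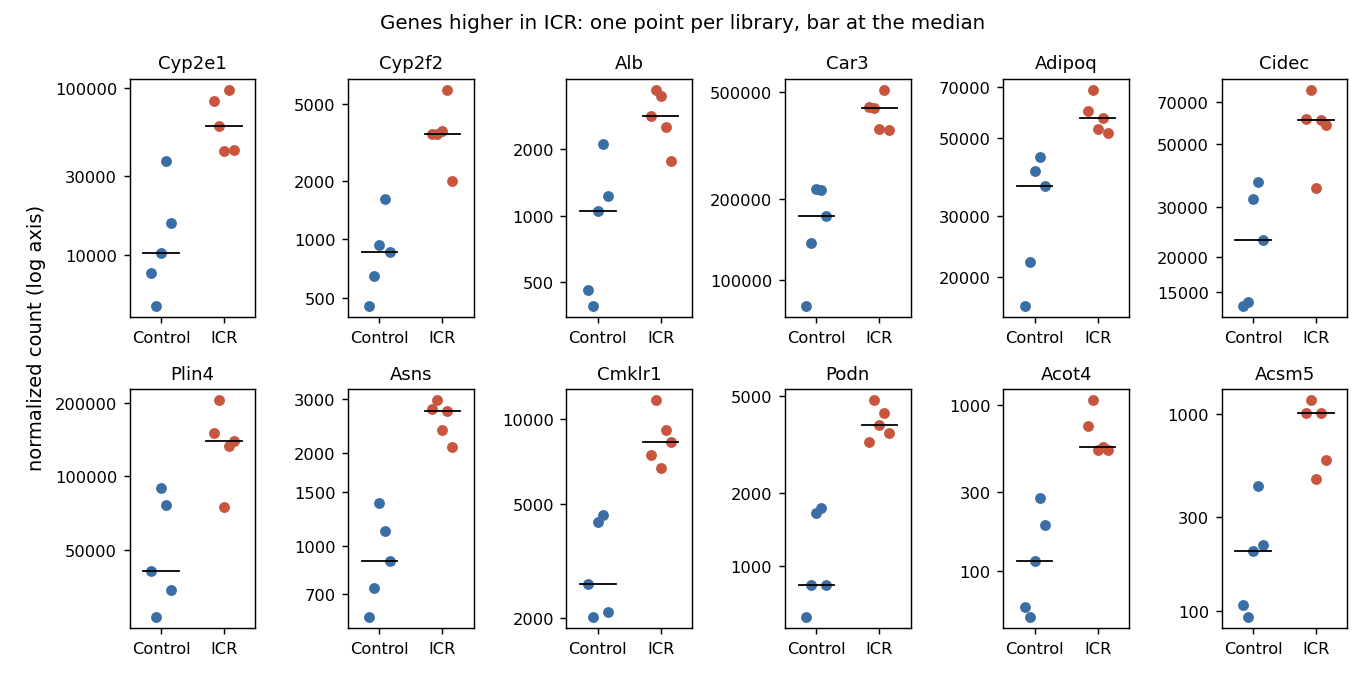
Normalized counts (log axis) of 12 genes that were higher in ICR, 1 point per library, 5 per group, with a bar at the median. ICR points lie wholly above Control points for Cyp2e1, Cyp2f2, Car3, Adipoq, Asns, Cmklr1, Podn, Acot4 and Acsm5, whereas for Alb, Cidec and Plin4 the ranges overlap.

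Genes of the mature adipocyte were higher in ICR as a group, and this list shares Adipoq, Fabp4 and Cidec with the marker sums above. Of 25 tested, 10 rose, with a median log2 difference of 0.97, then 0.44 and 0.03, where the covariate is the list's own mean. Car3, a carbonic anhydrase that is among the most abundant adipocyte transcripts, gave 79498, 136949, 217037, 215918 and 173014 in Control and 439035, 435550, 362478, 510006 and 359703 in ICR. The groups did not overlap and the log2 difference was 1.43, SE 0.28, adjusted p = 0.00846. Tusc5, a membrane protein of adipocytes, rose by 1.35 (SE 0.28, adjusted p = 0.00985). Cidec, which fuses lipid droplets, gave 13357, 13825, 31784, 36569 and 22927 in Control and 61042, 77500, 34993, 60388 and 58074 in ICR, with ICR 3 below Control 4, and a difference of 1.38, SE 0.29, adjusted p = 0.0107. Adiponectin, Adipoq, gave 16533, 22145, 40128, 44071 and 36496 in Control and 59692, 68649, 52915, 56872 and 51469 in ICR. Its ranges did not overlap, but the difference of 0.95 (SE 0.28, adjusted p = 0.0493) lay at the threshold and was lost in 8 of the 10 fits that left out 1 library. Cidec missed the threshold without Control 1 (largest adjusted p = 0.0517). Pparg, the master regulator of adipocyte formation, and Fabp4, Lpl, Lipe, Pnpla2 and Plin4 were the other members called.

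Of 19 lipid droplet and lipolysis genes tested 7 rose, with a median of 0.78, then 0.33 and -0.11. Among these 7, Cidec, Plin4, Pnpla2 and Lipe also stand in the mature adipocyte list. Plin4, a droplet coat protein, gave 41067, 26559, 89791, 76233 and 34238 in Control and 149855, 204525, 74891, 133547 and 139551 in ICR. ICR 3 lay below Control 3 and Control 4, and the difference was 1.48, SE 0.32, adjusted p = 0.0117. The adenosine receptor Adora1, which restrains lipolysis, rose by 1.56 (SE 0.34, adjusted p = 0.0128). So the called set held both the lipases Pnpla2 and Lipe with the coactivator Abhd5 and genes that act against lipolysis, Adora1 and the phosphodiesterase Pde3b. Plin4 missed the threshold without either of ICR 2 and Control 2 (largest adjusted p = 0.0549). Adora1 missed the threshold without any 1 of ICR 2, Control 1 or Control 2 (largest adjusted p = 0.06).

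Branched-chain amino acid breakdown, a mitochondrial route that adipocytes use to make acetyl-CoA, was higher in ICR. Of 22 tested, 11 rose, with a median of 0.69, then 0.32 and 0.08. Aldh6a1, the dehydrogenase of valine breakdown, gave 4844, 5196, 11778, 12459 and 10779 in Control and 21790, 25564, 16749, 22043 and 15080 in ICR. Bcat2, the mitochondrial transaminase of the first step, gave 1109, 1097, 1604, 2205 and 1797 and 4184, 3943, 2784, 3289 and 2570. Neither gene overlapped between groups, and the log2 differences were 1.25, SE 0.27, adjusted p = 0.0115 and 1.12, SE 0.24, adjusted p = 0.0128. Hibch, a later enzyme of valine breakdown, rose by 1.06 (SE 0.25, adjusted p = 0.0191). Aldh6a1 missed the threshold without any 1 of ICR 2, Control 1 or Control 2 (largest adjusted p = 0.0546). Bcat2 missed the threshold without any 1 of ICR 2, Control 1 or Control 2 (largest adjusted p = 0.0563). Hibch missed the threshold without any 1 of ICR 2, Control 1 or Control 2 (largest adjusted p = 0.0825).

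Other energy routes held 0 to 3 called genes each, all higher in ICR, where 3.69% of all genes tested were called higher. Positive differences ran from 13 of 23 genes (cholesterol synthesis) to 28 of 29 (citrate cycle and pyruvate entry). Of 27 genes of fatty acid oxidation and ketone use, 3 rose (median 0.49, then 0.07 and -0.16), among them Acsl1, which activates fatty acids (1.33, SE 0.33, adjusted p = 0.0212), and Oxct1, which takes up ketone bodies into energy production (0.64, SE 0.16, adjusted p = 0.0266). Acot4, a peroxisomal acyl-CoA thioesterase outside that list, rose as well: it gave 61.1, 53.1, 116, 277 and 189 in Control and 745, 1067, 537, 559 and 538 in ICR, a difference of 2.26, SE 0.34, adjusted p = 0.00218 that held without any 1 library. Its neighbour and close relative Acot3, chosen after its values were seen (chromosome 12, 84052144 to 84060402), came near to an on-off pattern, with 0, 0, 1.81, 3.33 and 4.1 in Control and 56.8, 45.1, 51.7, 53.2 and 29.6 in ICR (1.99, SE 0.27, adjusted p = 0.000904, and 4.37 on the log2(normalized count + 1) scale). Reads shared between such related genes leave their separate values uncertain. Acot3 ran from 0 to 3.14 in Obese, from 22.9 to 101 in LFCR and from 7.3 to 18.6 in MCR, the low-fat and Mediterranean-style groups under continuous restriction. Acsm5, a mitochondrial acyl-CoA synthetase, likewise gave 106, 92.9, 201, 431 and 216 and 1007, 1175, 469, 1017 and 582, without overlap (1.99, SE 0.32, adjusted p = 0.00339). In the citrate cycle and pyruvate entry list 2 of 29 rose, the kinase Pdk2 that restrains pyruvate dehydrogenase (1.07, adjusted p = 0.0171) and Suclg2 (0.50, adjusted p = 0.0266), and the median was 0.38, then -0.03 and -0.25. For oxidative phosphorylation limma called 0 of 49 genes, with 7 at an unadjusted p under 0.05, and voom on the recovered reads called 0 (median 0.24, then -0.07 and -0.29). Sugar entry (median 0.25, then -0.06 and -0.23) had 1 called gene of 16, the glycogen synthase Gys1 (0.91, adjusted p = 0.0456), triglyceride assembly (median 0.35, then -0.14 and -0.40) had 2 of 14, Lpin1 (1.27, adjusted p = 0.0297) and Gpat4 (0.83, adjusted p = 0.0307), and cholesterol synthesis (median 0.05, then -0.11 and -0.26) had 1 of 23, Fdft1 (1.02, adjusted p = 0.0171). Acsl1, Oxct1, Pdk2, Suclg2, Gys1, Lpin1, Gpat4 and Fdft1 each missed the threshold in some fits without 1 library, for 3 to 7 of the 10 libraries, Control 1, Control 2 and ICR 2 among them for each gene, where the largest adjusted p ran from 0.0671 for Pdk2 to 0.159 for Gys1.

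Genes of de novo fatty acid synthesis gave no call in the fit over all 29 libraries, while 3 were called higher without the 8 libraries low in B cell transcripts. For this list limma called 0 of 26 genes, with 4 at an unadjusted p under 0.05, and voom on the recovered reads called 0, and the median was 0.06, then -0.42 and -0.69. Fasn, the fatty acid synthase, gave 40610, 16051, 136742, 480368 and 416800 normalized counts in Control and 149889, 56692, 298487, 147308 and 39208 in ICR. It varied widely inside each group, with Control 4 and Control 5 highest, and the log2 difference of -0.06 (SE 0.81, adjusted p = 0.968) leaves a difference of several-fold in either direction within its error. Mlxipl, the sugar-sensing activator of lipid synthesis (1.26, adjusted p = 0.0672), and Aacs, which feeds ketone bodies into lipid synthesis (1.36, adjusted p = 0.0756), missed the threshold.

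Several secreted and signalling genes rose beyond the metabolic lists. Podn, a small proteoglycan of the matrix, gave 616, 836, 1655, 1736 and 833 in Control and 3216, 4796, 3788, 4250 and 3510 in ICR; no library overlapped, and the difference of 1.86, SE 0.26, adjusted p = 0.000904 shared the smallest adjusted p of all genes with Lonrf1 and Acot3. Lonrf1, a RING finger protein that was chosen after its values were seen, gave 243, 223, 245, 361 and 265 and 523, 571, 539, 518 and 429. Its difference was 0.90, SE 0.12, adjusted p = 0.000904, and it was the only gene called higher both in full and without Control 1 and Control 2 (0.79, adjusted p = 0.0434). Crtac1, a secreted protein first found in cartilage, gave 59.7, 97, 203, 289 and 66.5 and 585, 1067, 474, 466 and 790.2, and rose by 2.19 (SE 0.38, adjusted p = 0.0041). Klf14, a transcription factor that acts on metabolic genes in fat, gave 26.8, 70.5, 58, 57.5 and 28.7 and 181, 436, 141, 162 and 382. Its groups did not overlap, with ICR 2 and ICR 5 highest, and the difference was 1.90, SE 0.39, adjusted p = 0.00966 (1.89 without Control 1 and Control 2). Rgs7bp, which anchors regulators of G protein signalling, rose by 1.89 (adjusted p = 0.0023), Cys1, a protein of the primary cilium, by 1.77 (adjusted p = 0.0041), and Myom3, a muscle M-band protein, by 1.76 (adjusted p = 0.0128). Myom3 gave 38.4, 54.1, 67, 141 and 54.2 in Control and 202, 438, 355, 192 and 269 in ICR, where ICR 4 had the highest muscle marker sum. How much muscle each piece of tissue held was not tested. Myom3 missed the threshold without either of ICR 2 and Control 1 (largest adjusted p = 0.0563).

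Among adipokines, the hormones and hormone receptors of fat, 4 of 19 rose (median 0.76, then 0.26 and -0.06). Cmklr1, the chemerin receptor, gave 2629, 2013, 4328, 4607 and 2101 in Control and 7434, 11595, 6706, 9085 and 8246 in ICR, without overlap (1.51, SE 0.29, adjusted p = 0.00721). Nrg4 (1.5, adjusted p = 0.0161) and Nampt (0.76, adjusted p = 0.0372) rose as well, beside Adipoq. Leptin, Lep, whose transcript follows fat cell size, gave 5726, 15068, 19224, 14509 and 3863 in Control and 18855, 45062, 18444, 12403 and 20956 in ICR. Control 3 lay above ICR 1, ICR 3 and ICR 4, and the difference of 1.09 missed the threshold (SE 0.53, adjusted p = 0.201). Nrg4 missed the threshold without any 1 of ICR 2, Control 1 or Control 2 (largest adjusted p = 0.0684). Nampt missed the threshold without any 1 of ICR 1, ICR 2, ICR 3, ICR 4, Control 1, Control 2, Control 3 or Control 5 (largest adjusted p = 0.131).

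Genes that mark expanding white fat leaned upward without a call in the fit over all 29 libraries: limma called 0 of 14 genes, with 6 at an unadjusted p under 0.05, and voom on the recovered reads called 0, with a median of 0.70, then 0.63 and 0.21. Mest, an imprinted marker of fat cell enlargement, gave 400.2, 1642, 2367, 443 and 327 in Control and 1853, 9737, 1487, 1894 and 7938 in ICR. Only Control 2 and Control 3 reached into the ICR range, and ICR 2 and ICR 5 stood high (2.11, SE 0.69, adjusted p = 0.0719). Without the 8 libraries low in B cell transcripts, limma called 6 of the 14 genes higher, Mest among them (adjusted p = 0.0282). Sfrp5, a secreted Wnt inhibitor, gave 159, 1335, 1205, 415 and 189.6 and 1241, 3396, 466, 1059 and 1909, with wide overlap (1.45, SE 0.75, adjusted p = 0.227). Of 19 tested imprinted growth genes 3 rose: Grb10, an adaptor that restrains insulin receptor signalling, gave 1210, 1639, 2267, 2766 and 1830 and 4928, 5689, 3316, 5065 and 3668 without overlap (1.24, SE 0.24, adjusted p = 0.00711), the cell cycle inhibitor Cdkn1c rose by 1.10 (adjusted p = 0.0387) and the growth factor Igf2 by 0.75 (adjusted p = 0.0414). Grb10 and Igf2 also stand in the insulin and IGF signalling list, where 3 of 23 rose with the kinase Akt2 (0.75, adjusted p = 0.0128). Cdkn1c missed the threshold without any 1 of ICR 1, ICR 2, ICR 4, Control 1, Control 2 or Control 5 (largest adjusted p = 0.133). Igf2 missed the threshold without any 1 of ICR 1, ICR 2, ICR 4, ICR 5, Control 1, Control 2 or Control 5 (largest adjusted p = 0.112). Akt2 missed the threshold without any 1 of ICR 2, Control 1 or Control 2 (largest adjusted p = 0.0582).

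The circadian clock genes differed in both directions. Of 19 tested, 11 were higher in ICR and 1 was lower, with a median of 0.76, then 0.40 and 0.46. Those that rose included the repressor genes Per1, Per2, Per3, Cry1 and Cry2, the output factors Dbp, Tef and Hlf and the nuclear receptors Rora and Nr1d2, whereas Arntl, the activator that runs in antiphase to the Per genes over the day, fell. Clock factors act through the E-box, the letters CACGTG, which reads the same on both strands. It was found in the 250 bases before the start of 5 of 16 genes of the list that had a promoter entry (31.2%: Per1, Cry1, Tef, Bhlhe41 and Ciart), against 6.86% of 27025 genes. Of these 5, Bhlhe41 and Ciart were not called, and the called genes Per2, Per3, Hlf, Dbp and Arntl were not among the 5. A match is a description of the sequence, not a measured site. The windows of Per1 and Cry1, from RefSeq (GRCm38.p6), are shown for 2 repressors that rose, with the E-box in capitals. Per1 has 2 promoter entries, of which 1 is shown.
Per1 (chr11:69098699-69098948, plus strand): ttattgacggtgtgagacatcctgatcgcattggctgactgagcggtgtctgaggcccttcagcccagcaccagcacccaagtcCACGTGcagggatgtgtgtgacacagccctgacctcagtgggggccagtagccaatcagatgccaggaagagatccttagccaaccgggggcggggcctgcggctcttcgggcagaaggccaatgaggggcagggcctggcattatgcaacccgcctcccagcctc
Cry1 (chr10:85185055-85185304, minus strand): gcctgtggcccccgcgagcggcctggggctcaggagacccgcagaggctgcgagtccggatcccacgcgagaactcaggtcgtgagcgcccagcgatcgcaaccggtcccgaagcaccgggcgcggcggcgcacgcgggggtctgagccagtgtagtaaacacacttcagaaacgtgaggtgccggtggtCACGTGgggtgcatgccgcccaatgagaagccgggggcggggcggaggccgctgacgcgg

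Per2 gave 761, 540.1, 984, 3117 and 812 normalized counts in Control and 3623, 4884, 3553, 3656 and 2780 in ICR. Control 4 stood with the ICR libraries and the other Control libraries far below them, and the difference was 1.82, SE 0.33, adjusted p = 0.00485. Per3 gave 908, 855, 1640, 4409 and 1412 and 6191, 6873, 5032, 4745 and 5064, again with Control 4 next to ICR (1.85, SE 0.30, adjusted p = 0.00339). Arntl showed the mirror image, with 761, 729, 652, 243 and 486 in Control and 146, 95.8, 226, 261 and 235 in ICR, a log2 difference of -1.43 (SE 0.30, adjusted p = 0.0106), and Control 4 inside the ICR range. Hlf rose by 1.64 (SE 0.30, adjusted p = 0.00508), and these 4 calls held without any 1 library. Dbp, which was chosen after its values were seen like Cry1 and Per1, gave 429, 428, 1015, 3861 and 1131 in Control and 3594, 3283, 2976, 2517 and 3328 in ICR, with Control 4 above every ICR library (1.66, SE 0.39, adjusted p = 0.0171). Cry1 gave 444, 478, 362, 448 and 365 in Control and 627, 620.2, 708, 617 and 509.7 in ICR, and here Control 4 stayed with its own group (0.53, SE 0.15, adjusted p = 0.0483). Per1 rose by 0.76 (adjusted p = 0.0495). In the lane that held both ICR 3 and Control 4, the list's mean differed by -0.14, against a highest value of 0.98 over the 4 lanes with a library of each group. The times of day at which the pads were taken are not given in the labels, and their part in these differences was not tested. Dbp missed the threshold without any 1 of ICR 2, Control 1 or Control 2 (largest adjusted p = 0.0776). Cry1 missed the threshold without any 1 of ICR 1, ICR 2, ICR 3, ICR 4, Control 1, Control 2, Control 3 or Control 5 (largest adjusted p = 0.117). Per1 missed the threshold without any 1 of ICR 1, ICR 2, ICR 4, ICR 5, Control 1, Control 2, Control 3 or Control 5 (largest adjusted p = 0.144).

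Targets of fasting and stress hormones rose in part: 3 of 22 fasting and glucocorticoid genes rose (median 0.41, then 0.23 and 0.10), namely Zbtb16 (1.55, SE 0.39, adjusted p = 0.0271), Klf9 (1.02, SE 0.26, adjusted p = 0.0276) and Per1. Zbtb16 gave 1486, 1392, 2109, 3866 and 1414 in Control and 5114, 12866, 4282, 4899 and 3915 in ICR, where ICR 2 stood far above the rest. Zbtb16 missed the threshold without any 1 of ICR 1, ICR 2, ICR 4, Control 1, Control 2 or Control 5 (largest adjusted p = 0.108). Klf9 missed the threshold without any 1 of ICR 1, ICR 2, ICR 4, Control 1, Control 2 or Control 5 (largest adjusted p = 0.097).

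**Figure D3:**
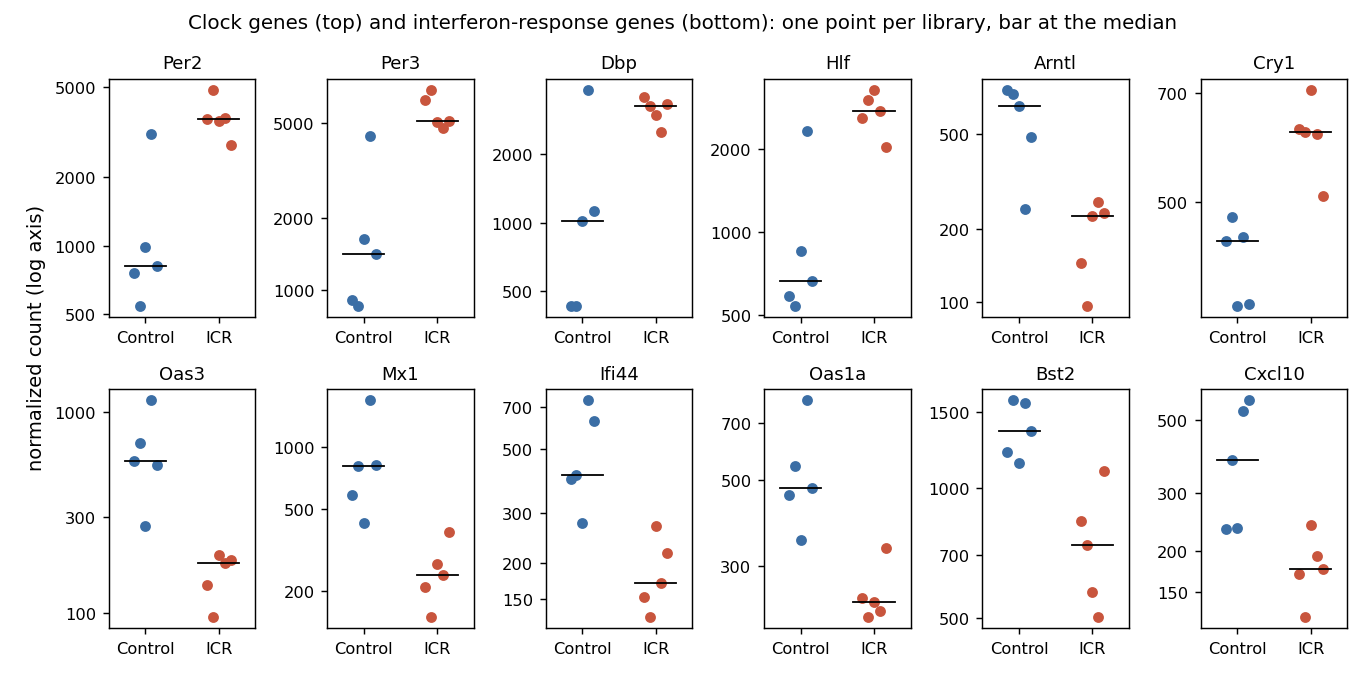
Normalized counts (log axis) of 6 clock genes (top row) and 6 interferon-response or interferon-induced genes (bottom row), 1 point per library, 5 per group, with a bar at the median. For Per2, Per3, Dbp, Hlf and Arntl 1 Control library, Control 4, lies at or next to the ICR level, and for Oas3, Mx1, Ifi44, Oas1a and Bst2 all ICR libraries lie below all Control libraries.

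Interferon-response genes, which cells switch on as antiviral defence, fell in ICR. Of 22 tested, 12 fell, where 0.882% of all genes tested did, and 21 had a negative difference. The median was -0.75, and it stayed at -0.76 without Control 1 and Control 2 and at -0.71 with the adipocyte covariate, although no member was called in either fit. With the luminal epithelial mean as a covariate, 2 of them were called, and the median was -0.63. Interferon factors bind a motif of GAAA, 2 bases of any kind and GAAA again, here searched on both strands. It lay within the 250 bases before the start of 7 of 16 genes of the list with a promoter entry (43.8%: Isg15, Ifit1, Ifit3, Stat2, Oas1a, Rsad2 and Bst2), against 3.46% of all 27025 genes. Of these 7, only Oas1a and Bst2 were called lower. Their windows are shown with the motif in capitals, where 2 overlapping matches join.
Oas1a (chr5:120907526-120907775, minus strand): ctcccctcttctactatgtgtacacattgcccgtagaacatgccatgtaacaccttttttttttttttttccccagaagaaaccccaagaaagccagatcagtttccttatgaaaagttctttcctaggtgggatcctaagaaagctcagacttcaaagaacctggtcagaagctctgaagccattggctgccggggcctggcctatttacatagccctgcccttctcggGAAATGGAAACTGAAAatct
Bst2 (chr8:71537473-71537722, minus strand): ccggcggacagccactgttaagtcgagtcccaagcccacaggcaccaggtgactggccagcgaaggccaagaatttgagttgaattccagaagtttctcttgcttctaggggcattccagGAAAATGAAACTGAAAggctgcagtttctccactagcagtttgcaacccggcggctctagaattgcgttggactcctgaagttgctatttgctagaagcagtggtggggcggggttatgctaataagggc

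Oas3, a sensor of double-stranded RNA and not a member of the list (chromosome 5, 120753098 to 120777661), gave 570.5, 702, 272, 1145 and 545 normalized counts in Control and 138, 95.8, 194, 178 and 184 in ICR. Every ICR library lay below every Control library, Control 4 was highest, and the difference of -1.77, SE 0.35, adjusted p = 0.00853 held without any 1 library. Mx1, an antiviral GTPase, gave 589.7, 813, 428, 1690 and 818 and 210.4, 150.3, 272, 239.5 and 388, also without overlap (-1.59, SE 0.43, adjusted p = 0.0334). Ifi44 gave 395, 407, 276, 741 and 627 and 152, 129.7, 269, 171 and 218 and fell by 1.23 on the log2 scale (SE 0.27, adjusted p = 0.013). Oas1a gave 456, 541, 349.8, 801 and 475 and 248, 222, 242, 230.3 and 335 (-0.93, SE 0.24, adjusted p = 0.0276), and Bst2, which tethers budding virus, gave 1210, 1594, 1144, 1570 and 1354 and 839.7, 739, 576, 504 and 1096 (-0.89, SE 0.23, adjusted p = 0.0293). Neither overlapped between groups, and both were chosen after their values were seen. Ddx58, the RNA sensor RIG-I, had a smaller difference of -0.62 (SE 0.13, adjusted p = 0.00941) that held without any 1 library. Oasl1 (-1.04, adjusted p = 0.0223), Slfn4 (-1.55, adjusted p = 0.0424), the nucleic acid sensor Zbp1 (-1.05, adjusted p = 0.0463) and Phf11a (-1.02, adjusted p = 0.0483) were also among the largest falls. Leaving out 1 library ended the calls of Mx1, Ifi44, Oas1a, Bst2, Oasl1, Slfn4, Zbp1 and Phf11a, for 1 to 9 of the 10 libraries, ICR 2 among them for each gene, and the largest adjusted p ran from 0.0567 for Ifi44 to 0.156 for Zbp1.

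Other inflammatory genes were called in part, where 0.882% of all genes tested were called lower. Of 22 cytokine and acute phase genes 2 fell (median -0.51, then -0.41 and -0.20), Cxcl10, a chemokine that interferon induces, and Il1b, an inflammasome cytokine. A negative difference was found in 19 of the 22. Without the 8 libraries low in B cell transcripts, 6 were called lower and 1 higher. Il1b gave 66.6, 118, 67, 67.5 and 71.4 in Control and 10.7, 3.76, 28, 28.7 and 64.2 in ICR, without overlap (-1.19, SE 0.35, adjusted p = 0.0475). Cxcl10 gave 233, 379.8, 236, 535 and 575 and 170.4, 126, 239, 193 and 177, with ICR 3 above Control 1 and Control 3 (-0.94, SE 0.25, adjusted p = 0.0337). Lymphoid lists were lower as well, as the lymph node sums above show: for B cells limma called 0 of 13 genes, with 0 at an unadjusted p under 0.05, and voom on the recovered reads called 0 (median -0.97, then -0.73 and 1.44), and 1 of 20 T and NK cell genes was called, the granzyme Gzma (-0.85, adjusted p = 0.0302). Without the 8 libraries low in B cell transcripts, all of other groups, limma called 12 of 13 B cell genes lower. The same fit called 6 of 20 T and NK cell genes lower, where 2392 of 19056 genes were lower. In the lymph node stroma and endothelium list it called 7 of 11 lower and 1 higher. With the B cell mean as a covariate 14 of 22 interferon genes were called lower, at a median of -0.71. For macrophages limma called 0 of 20 genes, with 5 at an unadjusted p under 0.05, and voom on the recovered reads called 0 (median -0.19, then -0.07 and 0.01), and Adgre1, the macrophage receptor F4/80, gave 787, 1445, 1243, 1042 and 640.1 and 989, 913, 824, 741 and 806, which overlapped (-0.21, SE 0.27, adjusted p = 0.62). Itgad, an integrin of macrophages in obese fat, lay between 6.21 and 63.4 counts in ICR and between 10 and 110 in Control (-0.81, SE 0.51, adjusted p = 0.315). In the lipid-associated macrophage list 1 of 16 was called, the lipase Lpl (1.18, adjusted p = 0.0367), which adipocytes also make and which stands in the adipocyte list. The calls of Cxcl10, Il1b, Gzma and Lpl were lost when 1 library was left out, for 5 to 8 of the 10 libraries, Control 2, ICR 1, ICR 2 and ICR 4 among them for each gene, with a largest adjusted p from 0.101 for Gzma to 0.161 for Il1b.

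Ucp1, the uncoupling protein of heat-producing brown and beige adipocytes, had the largest fall among called genes with a mean count of 50 or more (chromosome 8, 83290352 to 83298452). It gave 128, 20.4, 1055, 119 and 3648 normalized counts in Control and 2.66, 0, 8.62, 3.07 and 4.93 in ICR. All ICR libraries were close to 0, while the Control libraries spread widely, with Control 3 and Control 5 highest, and the difference was -3.95, SE 1.12, adjusted p = 0.0441. Ucp1 missed the threshold without any 1 of ICR 1, ICR 2, ICR 3, ICR 4, ICR 5, Control 1, Control 3 or Control 5 (largest adjusted p = 0.118). Its call was also lost by voom (-6.01, SE 3.43, adjusted p = 0.276), with the luminal mean as a covariate (adjusted p = 0.085) and with no filter (adjusted p = 0.0707), and the difference was -6.1 on the log2(normalized count + 1) scale. Of 19 thermogenic genes tested 14 had a negative difference (median -0.53, then -0.74 and -0.79), with Ucp1 the 1 called lower, while Ebf2, a regulator of beige progenitors, rose (0.99, SE 0.29, adjusted p = 0.0481). Ebf2 missed the threshold without any 1 of ICR 1, ICR 2, ICR 3, ICR 4, Control 1, Control 2 or Control 5 (largest adjusted p = 0.171).

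Dmbt1, a secreted scavenger receptor of ducts and mucosa, gave 4352, 1274, 22417, 70057 and 13305 in Control and 3704, 434, 452, 5001 and 1122 in ICR. Control 3, Control 4 and Control 5 were highest while Control 1 and Control 2 lay inside the ICR range, and the difference was -2.92, SE 0.77, adjusted p = 0.0306. Without Control 1 and Control 2 it was -4.34 (adjusted p = 0.0378). The luminal epithelium markers Epcam, Krt8, Krt18, Cldn7 and Cdh1 summed to between 8615 and 26021 counts in Control and between 12033 and 18508 in ICR, with none at 0, and in the luminal list 1 of 21 genes was called, the estrogen receptor Esr1, which was higher in ICR (1.08, SE 0.28, adjusted p = 0.0291). Esr1 went against its list, where 17 of 21 genes had a negative difference (median -0.31, then -0.53 and -0.44). Fbn2, a fibrillin of elastic fibres, gave 705, 168, 134, 98.4 and 121 and 16, 31.9, 111, 19.4 and 40.2, with Control 1 far above the others and ICR 3 above Control 4 (-1.81, SE 0.43, adjusted p = 0.02). Lgals7, a galectin of layered epithelia, fell by 1.17 (adjusted p = 0.0337), while of the 3 keratinocyte markers Krt1 and Lor stayed at or below 9.06 counts in all 10 libraries and Krt10 lay between 37.9 and 65. Cilp, a matrix protein that fibroblasts make, gave 416, 612, 469, 245 and 292 in Control and 169, 147, 208, 190.4 and 209 in ICR, without overlap (-0.98, SE 0.28, adjusted p = 0.0411). Dmbt1, Fbn2, Lgals7, Cilp and Esr1 each missed the threshold in some fits without 1 library, for 5 to 6 of the 10 libraries, Control 1 and ICR 2 among them for each gene, where the largest adjusted p ran from 0.0819 for Fbn2 to 0.136 for Cilp.

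Several genes of the peripheral myelin sheath, the wrapping that Schwann cells lay around nerve fibres, were higher in ICR. Of 14 Schwann cell and neuron genes 4 rose, among them Pmp22 (1.20, adjusted p = 0.0349) and Prx (1.53, adjusted p = 0.0408), both proteins of that sheath. The list's median was 0.29, then 0.34 and 0.29. Other genes of Schwann cells, chosen after their values were seen, were higher too: Cdh19 gave 85.8, 95, 246, 339 and 185 and 758, 724, 579, 708 and 369 (1.70, SE 0.35, adjusted p = 0.00937), Cldn19 gave 5.49, 18.4, 39.9, 63.4 and 57.4 and 248, 218, 72.2, 194 and 84.6 (1.67, SE 0.41, adjusted p = 0.0211), and the myelin lipid enzymes Fa2h and Ugt8a differed by 1.52 and 1.17 (adjusted p = 0.0171 and 0.0341). Sox10, the factor that defines the lineage, did not separate the groups, with 325 to 1996 counts in Control and 618 to 1521 in ICR, and how much nerve each piece of tissue held was not tested. Leaving out 1 library ended the calls of Pmp22, Prx, Cldn19, Fa2h and Ugt8a, for 5 to 8 of the 10 libraries, Control 1, Control 2, ICR 1, ICR 2 and ICR 4 among them for each gene, and the largest adjusted p ran from 0.071 for Fa2h to 0.139 for Pmp22.

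Red blood cell transcripts were higher in ICR: of 8 tested, 2 were called and all 8 had a positive difference (median 1.01, then 0.83 and 0.49). Hba-a1, an alpha globin, gave 1486, 1320, 1530, 1900 and 2047 in Control and 4134, 4018, 2944, 5131 and 4030 in ICR, without overlap (1.27, SE 0.32, adjusted p = 0.0253). Its near-identical copy Hba-a2 (1.08, adjusted p = 0.049) shares reads with it, so their separate values are uncertain. Alas2, the heme enzyme of red cell precursors, and the beta globin Hbb-bs did not overlap between groups but missed the threshold (1.05, adjusted p = 0.0637, and 1.08, adjusted p = 0.0522). Both were fixed beforehand as red blood cell markers, but reporting their tests was chosen after their values were seen. Hba-a1 missed the threshold without any 1 of ICR 1, ICR 2, ICR 4, Control 1 or Control 2 (largest adjusted p = 0.0815). Hba-a2 missed the threshold without any 1 of ICR 1, ICR 2, ICR 4, ICR 5, Control 1, Control 2, Control 3 or Control 5 (largest adjusted p = 0.137).

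Among stress and oxygen genes single members stood out. Asns, which makes asparagine and rises when amino acids are short, gave 588, 729, 1383, 1119 and 894 in Control and 2779, 2977, 2377, 2743 and 2098 in ICR, and its difference of 1.49, SE 0.25, adjusted p = 0.00339 held without any 1 library. In the same endoplasmic reticulum stress list 3 of 18 fell, the chaperone-linked genes Sdf2l1 (-0.91, SE 0.21, adjusted p = 0.0171), Creld2 (-0.56, SE 0.13, adjusted p = 0.0161) and Manf, and the list had a median of -0.05, then -0.03 and -0.12. Of 20 hypoxia and glycolysis genes the mitophagy receptor Bnip3 (1.36, SE 0.29, adjusted p = 0.0108) and the vessel growth factor Vegfa (1.06, SE 0.23, adjusted p = 0.0118) rose and the glycolytic enzyme Pfkp fell (-0.36, SE 0.09, adjusted p = 0.0243), with a list median of -0.01, then -0.25 and -0.26. The calls of Sdf2l1, Creld2, Bnip3, Vegfa and Pfkp were lost when 1 library was left out, for 1 to 6 of the 10 libraries, with a largest adjusted p from 0.0518 for Bnip3 to 0.0847 for Pfkp.

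Most structural lists showed few calls. For collagen and matrix limma called 0 of 29 genes, with 2 at an unadjusted p under 0.05, and voom on the recovered reads called 0 (median 0.10, then 0.10 and -0.19), for endothelium limma called 0 of 14 genes, with 4 at an unadjusted p under 0.05, and voom on the recovered reads called 0 (median 0.24, then 0.17 and -0.02), and for cell division limma called 0 of 24 genes, with 7 at an unadjusted p under 0.05, and voom on the recovered reads called 0 (median -0.64, then -0.31 and -0.12, with all 24 differences negative). Timp3, an inhibitor of matrix proteases, rose by 1.28 (SE 0.29, adjusted p = 0.0158), the fat progenitor factor Zfp423 by 0.97 (adjusted p = 0.0392) and the mast cell factor Gata2 by 0.58 (adjusted p = 0.0171), each the 1 called gene of its list. For skeletal muscle limma called 0 of 17 genes, with 2 at an unadjusted p under 0.05, and voom on the recovered reads called 0 (median 0.60, then 0.64 and 1.21). Timp3, Zfp423 and Gata2 each missed the threshold in some fits without 1 library, for 3 to 6 of the 10 libraries, Control 1 and ICR 2 among them for each gene, where the largest adjusted p ran from 0.0659 for Timp3 to 0.138 for Zfp423.

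**Figure D4:**
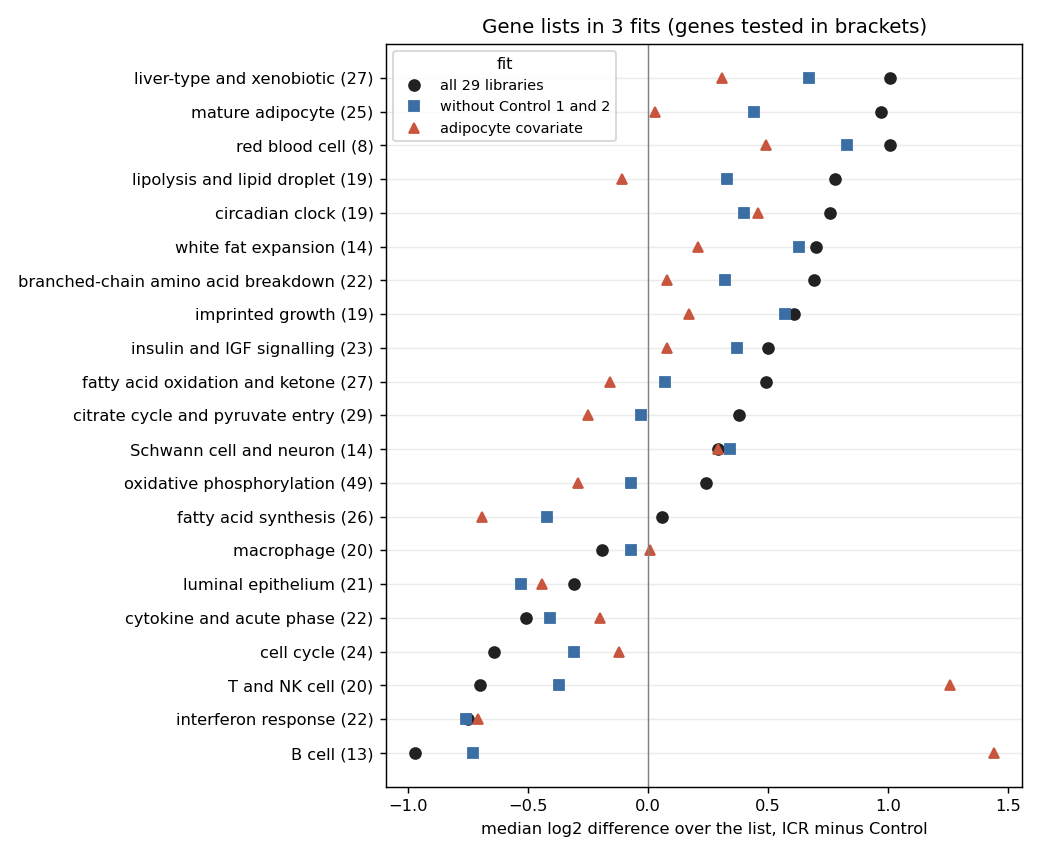
Median log2 difference, ICR minus Control, over the tested genes of 21 lists (number in brackets), in the fit over all 29 libraries (circles), without Control 1 and Control 2 (squares) and with the adipocyte list mean as a covariate (triangles). The interferon list keeps -0.75, -0.76 and -0.71 in the 3 fits, whereas the mature adipocyte list moves from 0.97 to 0.44 and 0.03.

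Besides the fits without 1 library, other settings ended some of the calls given above. With the luminal mean as a covariate, the calls lost were Ucp1, Dmbt1, Mx1, Slfn4, Il1b, Lgals7, Zbp1, Oasl1, Phf11a, Cilp, Gys1, Gpat4, Oxct1, Ebf2, Nampt, Lpl, Gzma, Zfp423, Pmp22, Zbtb16, Per1, Igf2, Cdkn1c, Adipoq, Cry1, Oas1a and Bst2 (adjusted p 0.0508 to 0.101). A fit of the 2 groups alone lost Dmbt1, Fbn2, Il1b, Lgals7, Zbp1, Oasl1, Gys1, Lpin1, Gpat4, Acsl1, Ebf2, Nrg4, Nampt, Lpl, Cxcl10, Esr1, Pmp22, Per1, Creld2, Adipoq and Dbp (adjusted p 0.05 to 0.11). With no filter on low counts, Ucp1, Dmbt1, Slfn4, Il1b, Zbp1, Phf11a, Cilp, Gys1, Ebf2, Nampt, Zfp423, Prx, Hba-a2, Per1, Igf2, Cdkn1c, Adipoq and Cry1 (adjusted p 0.0502 to 0.0707) missed the threshold, and by voom on the recovered reads Ucp1, Slfn4, Il1b, Phf11a and Cilp (adjusted p 0.0614 to 0.276) did. A term for the sequencing lane ended the calls of Gys1, Gzma, Hba-a2 and Adipoq (adjusted p 0.0523 to 0.0603), the muscle mean those of Hba-a2, Igf2, Adipoq and Cry1 (adjusted p 0.05 to 0.0523), the log2(normalized count + 1) scale those of Il1b, Phf11a and Cry1 (adjusted p 0.0518 to 0.096), quantile normalization that of Per1 (adjusted p = 0.0548), and moderation with neither trend nor robust fitting those of Hba-a2 and Per1 (adjusted p 0.0501 to 0.0516). The B cell mean as a covariate and array quality weights ended none of them. Settings also added calls, so counts of 0 given for lists hold for the fit over all 29 libraries. Without the 8 libraries low in B cell transcripts, 10 of 24 cell division genes were called lower and 5 of 14 endothelium genes higher. Of all 19056 genes in that fit, 2346 were higher and 2392 lower. A fit of the 2 groups alone called 7 red blood cell genes higher.

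Where ICR differed from lean fat, its place beside fat that stayed obese varied by gene. The comparison with the Obese group (5 libraries, same strain and tumour injection, still obese after the 60% fat diet) shares the ICR libraries, so both sets of values are given side by side. Against Obese, 1786 genes were called (9.21%), 773 higher in ICR (3.99%) and 1013 lower (5.23%). Of the 716 genes higher than Control, 231 were also higher than Obese, 1 was lower, and 484 were not called. Of the 171 genes lower than Control, 37 were also lower than Obese and 134 were not called. The B cell list mean was 6.59 and 6.85 in Obese 1 and Obese 5 and 11.85, 12.24 and 12.28 in the other Obese libraries, against 10.22 to 11.73 in ICR, so Obese lay on both sides of ICR. With that mean as a covariate 3924 genes were called against Obese.

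Medians of Cyp2e1, Cyp2f2 and Alb were highest in ICR, then Control, then Obese. Cyp2e1 ran from 210 to 1497 counts in Obese, below every library of both other groups, and ICR minus Obese was 6.38, SE 0.55, adjusted p = 2.05e-07. Cyp2f2 ran from 111 to 379 in Obese (4.00, SE 0.42, adjusted p = 2.61e-06), and Alb from 166 to 525 (2.97, SE 0.40, adjusted p = 4.34e-05). Mest, Sfrp5 and Lep had their highest values in Obese: Mest ran from 13767 to 31645 in Obese (-2.88, SE 0.69, adjusted p = 0.00821), Sfrp5 from 8125 to 25435 (-3.45, SE 0.75, adjusted p = 0.00413) and Lep from 54354 to 146334 (-2.22, SE 0.53, adjusted p = 0.00774). ICR medians of these 3 genes lay above the Control medians, without a call in the fit over all 29 libraries. Fasn was far higher in ICR than in Obese (3.55, SE 0.81, adjusted p = 0.00579) while it overlapped with Control. Itgad and Adgre1 were lower in ICR than in Obese (-5.32, SE 0.51, adjusted p = 1.1e-06 and -1.13, SE 0.27, adjusted p = 0.00857). Crtac1 and Klf14 lay above Control and had negative differences from Obese that missed the threshold (-0.83, SE 0.38, adjusted p = 0.185 and -1.14, SE 0.39, adjusted p = 0.0664), and Cilp was below both groups (-2.02, SE 0.28, adjusted p = 5.6e-05 against Obese).

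**Figure D5:**
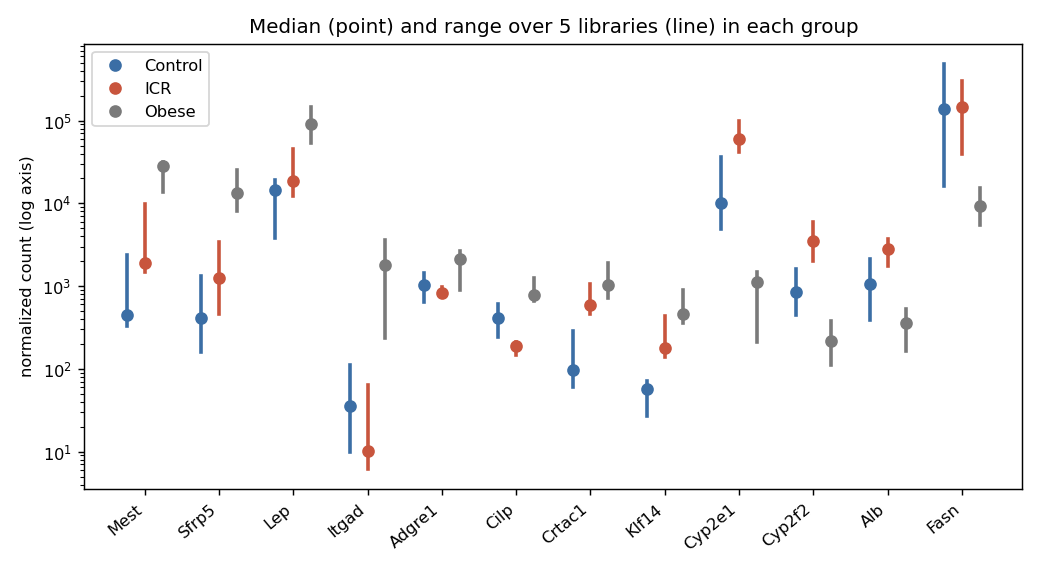
Normalized counts (log axis) of 12 genes in Control, ICR and Obese, with the median of 5 libraries as a point and their full range as a line. Cyp2e1, Cyp2f2 and Alb are highest in ICR and lowest in Obese, and Mest, Sfrp5 and Lep are highest in Obese with ICR between.

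Against continuous restriction (the mean of LFCR and MCR, low-fat and Mediterranean-style diets with 30% restriction, 5 and 4 libraries), limma called 1 gene, Pmepa1, over the same 19387 genes (0.00516%), with 3447 at an unadjusted p under 0.05. Pmepa1, a membrane protein that damps TGF-beta signalling, was higher in ICR by 1.36 (SE 0.22, adjusted p = 0.0357). It gave 2986, 1586, 4558, 2900 and 2408 in Control and 5377, 8731, 4272, 7067 and 7387 in ICR, where ICR 3 lay below Control 3, and was also higher than Control (1.22, SE 0.25, adjusted p = 0.00988). Cyp2e1, Alb and Mest did not separate the restricted groups by a call: ICR minus continuous restriction was 0.28 for Cyp2e1 (SE 0.48, adjusted p = 0.774), -0.49 for Alb (SE 0.35, adjusted p = 0.447) and 1.15 for Mest (SE 0.61, adjusted p = 0.31). The libraries differed in B cell transcripts: the B cell list mean lay between 6.31 and 7.06 in LFCR 1, LFCR 3, MCR 1, MCR 3 and MCR 4 and between 10.89 and 12.20 in the other 4 libraries under continuous restriction, and the list's median difference was 2.66. The count of calls depends on the libraries used: without MCR 2, 1678 genes were called, without LFCR 1 60, without ICR 3 19, and with the B cell mean as a covariate 520. It was 0 without any 1 of ICR 1, ICR 2, ICR 4, ICR 5, LFCR 2, LFCR 3, LFCR 4, LFCR 5 and MCR 3, and 0 by voom on the recovered reads.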

How the data were processed

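Total RNA was extracted with TRIzol and sequenced as stranded paired reads of 76 bases, per the labels' protocols. The authors deposited 1 table of log2 values for 30818 genes in 29 libraries, made with TopHat2 2.0.7, HTSeq 0.5.3p9 and DESeq2 on mm10, per the submitters' processing notes. The transform is not given in the sources used here. Undoing a variance-stabilising transform gave whole reads for 100% of values (tolerance 0.01), and the normalized counts printed come from that step. The deposited log2 values were tested with limma 3.58.1 (R 4.3.3), with 1 mean per group over all 29 libraries, trend and robust moderation, for 19387 genes with 10 or more normalized counts in at least 4 libraries. Adjusted p-values are from limma with the Benjamini-Hochberg method. On simulated data for 29 libraries in the same groups and 19364 genes, 69% of genes changed 2-fold and 94% of genes changed 4-fold were called, with 5 false calls. Each gene was drawn independently. Variation in cell content that many genes share was not simulated, so the false calls do not cover it. The 45 lists, and the genes named, were chosen with earlier results of these data known. Named are the 15 largest rises and falls past the threshold with a mean count of 50 or more, up to 3 called members of each list (up to 2 where none was called) and 10 readouts; other names were chosen after their values were seen. Predicted genes were counted but not named, and some genes that the rule covers are not reported here. Gene positions are from GENCODE vM21 (GRCm38). Reads carry no molecular identifiers. Alternatives left out libraries, added lane or cell-type covariates, and changed the filter, scale or tool. Muscle and adipocyte covariates and the fit without Control 1 and Control 2 were added after seeing the data.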

Additional observations from a re-analysis of the deposited data

Results flagged for a closer look

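Of 160 sets of 5 libraries examined (Control and ICR, for the genes and lists reported), 12 held 1 library far from the other 4, by a gap of more than 0.71 of the group's range. Chance alone gives such a gap in about 1 of 20 sets. ICR 3 stood apart in 5 list means: lipid-associated macrophage genes (10.49, the others 10.12 to 10.18), milk protein genes (10.64, the others 8.49 to 8.88), smooth muscle genes (11.70, the others 11.39 to 11.48), keratinocyte genes (5.58, the others 5.97 to 6.10) and red blood cell genes (8.91, the others 9.31 to 9.45). Skeletal muscle genes had a mean of 8.90 in ICR 4, with 6.26 to 6.58 in the other ICR libraries. In ICR 5 the mast cell mean was low at 8.75 and Itgad high at 6.46, where the other ICR libraries reached 5.12. Fasting and glucocorticoid genes stood high in Control 4 at 12.10 (the others 11.10 to 11.34) and in ICR 2 at 12.28 (the others 11.59 to 11.77). Fbn2 reached 9.52 in Control 1 (the others 6.95 to 7.60) and Il1b 7.17 in Control 2 (the others 6.52 to 6.59). All of these are on the deposited log2 scale.

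Pmepa1 passed the threshold for intermittent against continuous restriction, with a log2 difference of 1.36, the single call of a count that depended on the libraries used.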

How the results depend on the processing

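Counts of genes called for ICR against Control, 887 in all, moved most with the libraries and covariates used. They were 4738 (2346 higher, 2392 lower) without the 8 libraries low in B cell transcripts, all of other groups, 2127 (1380 and 747) with the B cell mean as a covariate, 3724 (2345 and 1379) with array quality weights and 580 (93 lower) with the luminal mean. Fitting only the groups compared gave 334 lower genes, lane as a term 408 and no filter 104. With the adipocyte covariate 4 were called (2 and 2), and without both Control 1 and Control 2 2 (1 and 1). Leaving out 1 library gave 151 to 1521 genes, 128 to 1189 higher and 16 to 332 lower. ICR against Obese had 3924 with the B cell covariate, 1101 with the luminal mean and 4500 with array weights. ICR against continuous restriction had 0 in the groups compared alone, with the luminal mean and by voom, 8 without the low B cell libraries, 520 with the B cell covariate, 57 after quantile normalization, 4006 with array weights, and 0 to 1678 without 1 library. The causes were not tested. Of the genes given with values in the text, Fasn changed sign: it reached 0.01 with the B cell covariate and 0.03 with the luminal mean and ran from -0.76 to 0.47 without 1 library. Adgre1 came to 0.00 with array weights. Animals were not paired, because the labels give the groups no shared replicate numbers. Lane, which 4 ICR libraries share with a Control library, was fitted as a term instead, with 1274 genes called. Depth limits low genes, whose log2 differences the scale compresses.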

Other observations

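Smooth muscle and pericyte genes lay higher in every ICR library than the Control median: the list mean ran from 11.39 to 11.70 in ICR and from 10.82 to 11.39 in Control, and 11 of 12 genes had a positive difference. limma called 0 of them, with 2 at an unadjusted p under 0.05, and voom called 0. Cspg4, a pericyte proteoglycan, differed by 1.23, SE 0.43, adjusted p = 0.0934, and Myl9, a smooth muscle myosin light chain, gave 1484, 1037, 1613, 1573 and 1151 in Control and 1908, 1800, 2231, 1663 and 2022 in ICR, without overlap (0.50, SE 0.20, adjusted p = 0.139).

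Neutrophil and plasma cell genes lay lower in ICR without a call in the fit over all 29 libraries. S100a9, a neutrophil protein, gave 81.7, 401, 87, 200 and 94.4 normalized counts in Control and 9.76, 78.9, 41, 26.6 and 50 in ICR (-1.50, SE 0.55, adjusted p = 0.102), and every ICR library lay below every Control library. Prdm1, the plasma cell regulator, gave 347, 636, 328, 253 and 295 and 171, 164, 236, 237 and 236, also without overlap (-0.71, SE 0.22, adjusted p = 0.0613). The adipocyte complement factor Cfd differed by 1.01, SE 0.37, adjusted p = 0.101 and Xdh, a milk fat globule enzyme that fat also makes, by 0.89, SE 0.27, adjusted p = 0.056.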
